A study of Homo sapiens with 8 samples.

Results

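The hg19 bands 19q13.12 (chr19:35500001-38300000) and 19q13.31 (chr19:43400001-45200000) hold a pair of the zinc finger gene clusters on the long arm of human chromosome 19. They were cut into 460 adjacent tiles of 10 kb, 280 in 19q13.12 and 180 in 19q13.31, out of 309556 such tiles on hg19. The tiles were set by position alone. The study profiled histone H3 trimethylated at lysine 9 (H3K9me3) by ChIP-seq in PC9, an established human lung adenocarcinoma line whose growth depends on mutant EGFR. Parental PC9 cells had no drug. Drug-tolerant persisters (DTP) were what survived 8 days in 1 uM erlotinib, which blocks the EGFR kinase. DTP + TSA were persisters that also received 50 nM trichostatin A (TSA), a histone deacetylase inhibitor, for 5 hours, so the erlotinib treatment is common to both drug-treated states. Each state has 1 H3K9me3 library. No difference between states therefore has a replicate check, no test is possible and no p-value is given.

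H3K9me3 marks heterochromatin, and the HP1 proteins bind it. Most zinc finger genes of chromosome 19 encode KRAB zinc finger proteins, which bind DNA, many of them in transposable elements, and recruit the corepressor TRIM28 and with it the H3K9 methyltransferase SETDB1. The clusters of these genes are themselves known to carry broad H3K9me3. In the RefSeq annotation of GRCh38 the band 19q13.12 holds 85 protein-coding genes, 30 of them with zinc finger names. The first 55 are almost all of other families, among them HAMP (the iron hormone hepcidin), MAG (a myelin glycoprotein), KMT2B (an H3K4 methyltransferase) and NPHS1 (nephrin of the kidney filter), with ZBTB32 as the 1 zinc finger name among them. A row of 24 neighbouring zinc finger genes follows, from ZNF565 to ZNF793, and 5 of the last 6 genes (among them ZNF540, ZNF571 and ZFP30) are of the family too. The band 19q13.31 holds 50 protein-coding genes, 23 of them with zinc finger names. It opens with PSG genes (pregnancy-specific glycoproteins), goes on to genes such as XRCC1 (DNA single-strand break repair) and PLAUR (the urokinase receptor), and then has a row of 20 zinc finger genes from ZNF283 to ZNF180, with 5 other genes after it. Names and order are from another build than the intervals, so no gene was placed in a tile.

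The authors deposited 1 list of enriched intervals per library, with 23842 intervals for parental cells, 47866 for DTP and 53000 for DTP + TSA. Coverage below is the share of bases inside such intervals. It says nothing of the height of the signal, and the read depth is unknown. Over all chromosomes the median interval was 3800 bp long in the parental list, and it was shorter, 2400 bp, in both drug-treated lists.

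In parental cells 19q13.12 had a bare stretch followed by a marked one that ran to its end, while 19q13.31 had its marked part between bare stretches. The former was the more heavily and more evenly marked. Coverage was 53.0% of 19q13.12 (1.49 Mb) and 27.6% of 19q13.31 (0.497 Mb). In 19q13.12 the first 13 windows of 100 kb were covered by 0% to 37.6% and the next 15 by 72.6% to 100%. In 19q13.31 the 6 windows with at least 50% coverage ranged from 50.6% to 98%, and the other 12 from 0% to 43.2%. Of the 280 tiles of 19q13.12, 102 had no coverage, 93 were fully covered and 152 were covered by at least 50%. Of the 180 tiles of 19q13.31, 101 had none, 24 were full and 49 reached 50%. The marked part of 19q13.31 was thus broken up by tiles of low coverage already in parental cells.

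**Figure D1:**
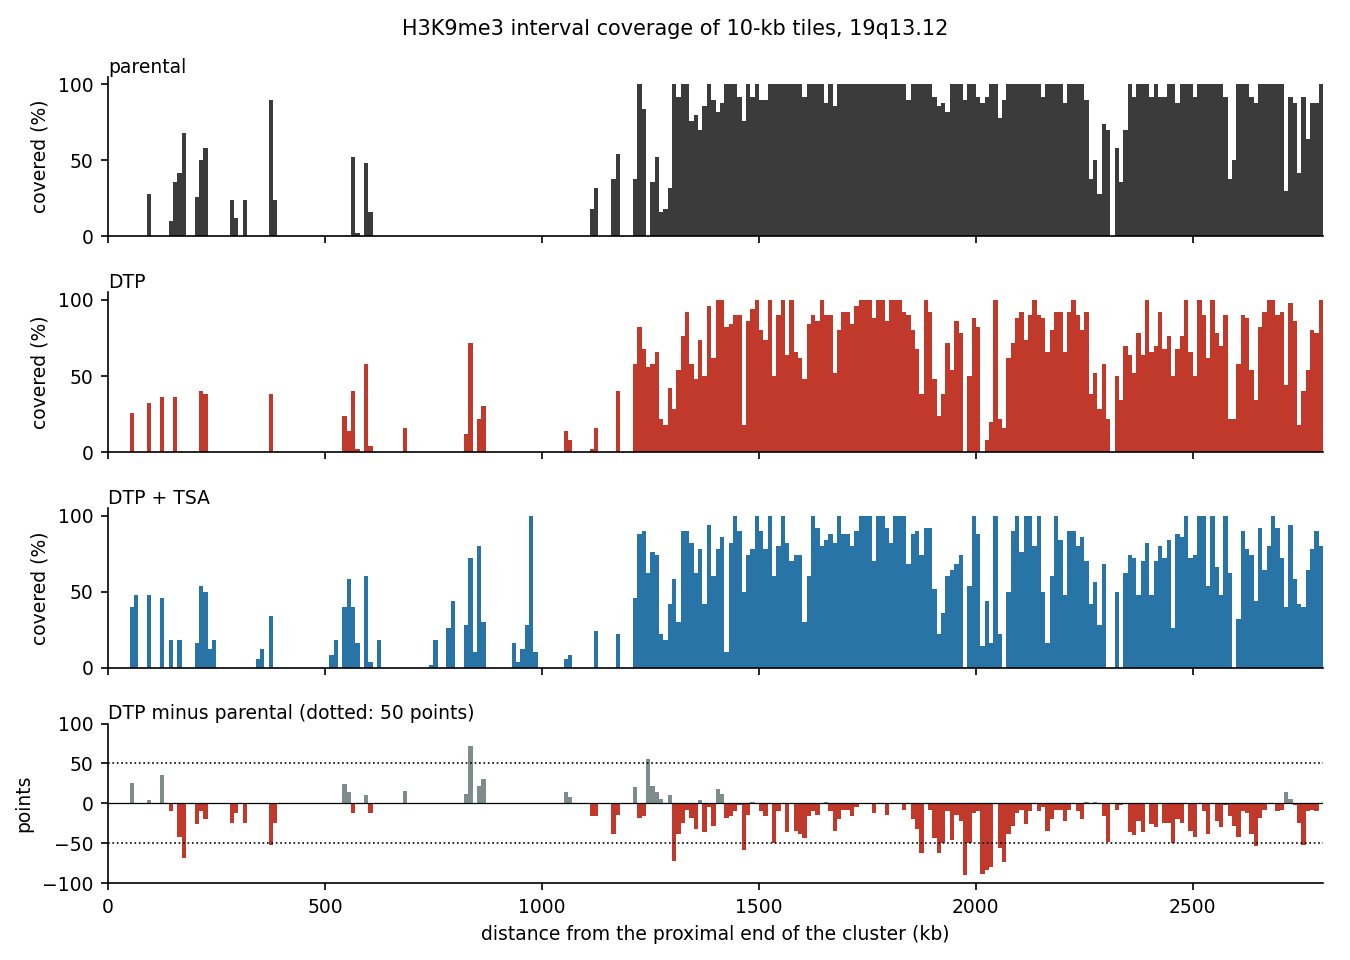
Share of each 10-kb tile of 19q13.12 inside H3K9me3 intervals (percent, y axis) in the 3 libraries, and the difference DTP minus parental (points), against distance from the proximal end of the cluster (kb). The marked part begins at about 1200 kb in all 3 libraries, and the deepest loss lies near 2000 kb, where 3 tiles at chr19:37510001-37540000 averaged 93.3% in parental cells and 9.33% in DTP.

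**Figure D2:**
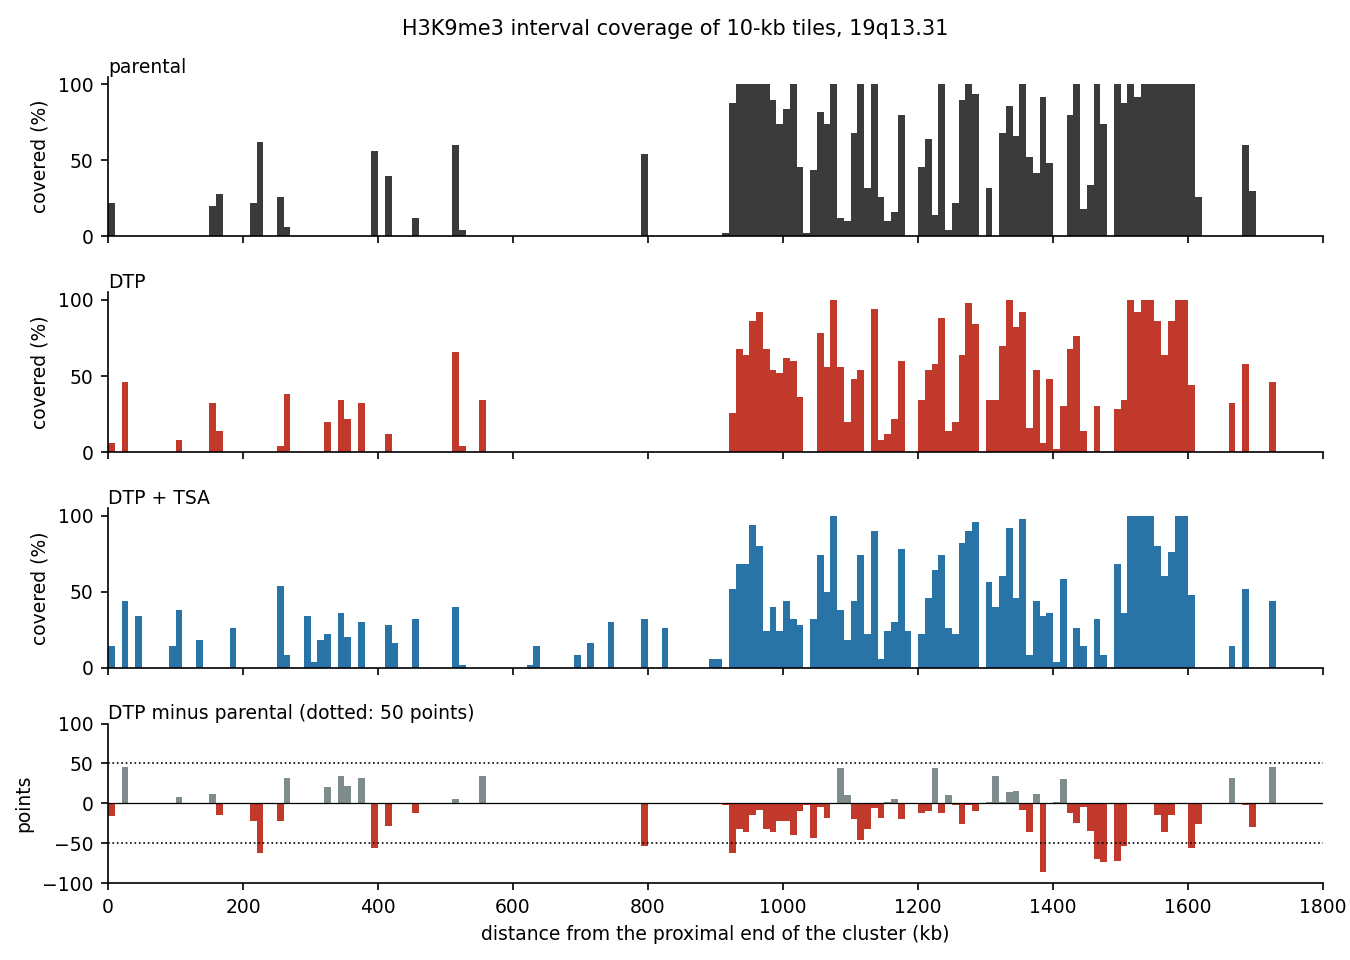
The same for 19q13.31. The marked part lies between about 900 and 1600 kb, and the 2 tiles at chr19:44860001-44880000 averaged 87% in parental cells, 15% in DTP and 20% after TSA.

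A domain is here a chain of intervals with gaps of at most 5 kb and a total length of at least 10 kb. By this rule 19q13.12 had 10 parental domains with a median of 26.2 kb, of which 1 spanned 1012 kb. That domain lay at chr19:36794801-37807000, joined 40 intervals and was covered over 93.9% of its length. The next longest were chr19:37843001-38084600 (241.6 kb) and chr19:38093801-38210200 (116.4 kb). The 13 parental domains of 19q13.31 were shorter, with a longest of 122.6 kb at chr19:44890001-45012600, followed by chr19:44319801-44425400 (105.6 kb) and chr19:44723201-44767000 (43.8 kb). The longest undivided parental interval was 163.0 kb in 19q13.12, at chr19:37177801-37340800, and 91.4 kb in 19q13.31, at chr19:44921201-45012600.

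The strongest interval of 19q13.12 by the authors' mean value was the same in every library, chr19:37783401-37785600, 2.2 kb long. Its mean value was 713 in the parental list, 2331 in that of DTP and 3586 in that of DTP + TSA, at percentiles 99.97, 99.99 and 99.998 of the lists. The scaling between libraries is not known, so these values show rank within a list and no change. In the parental list this interval stood far above the median mean value of the cluster's intervals, 10.3. In 19q13.31 the strongest parental interval was the 91.4 kb one (mean value 21.9). In DTP it was chr19:44706001-44709400 (52.6), and in DTP + TSA chr19:44706401-44710800 (57.2), which overlap each other.

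The first comparison asked where these clusters lost H3K9me3 coverage in persisters. Both clusters fell to about the same fraction of their parental coverage, 19q13.12 from 53.0% to 42.8% and 19q13.31 from 27.6% to 22.2%, ratios of 0.806 and 0.802. In 19q13.12 nearly all of the net fall stood in windows of at least 50% parental coverage. In 19q13.31 the windows below 50% fell in proportion as a sum. In 19q13.12 all 15 windows of 100 kb with at least 50% parental coverage were lower in DTP, their mean going from 91.5% to 72.5%. In 19q13.31 all 6 such windows were lower, with means of 65.2% and 52.3%. The windows below 50% averaged 8.68% in parental cells and 8.38% in DTP in 19q13.12, a net change of -3.8 kb beside -284.2 kb in the marked windows. In 19q13.31 they averaged 8.83% and 7.08%, a ratio of 0.802 that equals that of its marked windows, with net changes of -21 kb and -77.6 kb. The 13 windows below 50% in 19q13.12 include chr19:36700001-36800000, at the start of its marked part, which rose from 37.6% to 47%. Of these 13, 4 were lower and 6 higher in DTP, and of the 12 in 19q13.31, 5 were lower and 5 higher. The contrast between the clusters in these windows thus leans on 1 window.

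The loss was mostly partial. Full tiles went from 93 to 26 in 19q13.12 and from 24 to 7 in 19q13.31. Tiles with no coverage stayed near their parental number, at 101 after 102 and 102 after 101, but these are net counts. In each cluster 12 bare tiles gained some coverage and others were emptied. Of tiles above 0% and below 50% in parental cells, 8 of 26 in 19q13.12 and 9 of 30 in 19q13.31 had none in DTP. Of those with at least 50%, 3 of 152 and 4 of 49 had none. Tiles fully covered in parental cells averaged 83.4% in DTP in 19q13.12 and 78.3% in 19q13.31. The 1812 fully covered parental tiles elsewhere on hg19 averaged 67.1%, below both clusters. Tiles from 50% to below 90% in parental cells went from a mean of 74.6% to 52.3% in 19q13.12 and from 71% to 46.5% in 19q13.31. Elsewhere they started lower, at 65.3%, and averaged 34.4%. A tile chosen for high parental coverage can stay or fall more easily than rise, and this holds for the clusters and the rest of hg19 alike.

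A tile was called lost where its coverage fell by at least 50 percentage points. In 19q13.12, 18 tiles were called lost from parental to DTP, 6.43% of its tiles, and in 19q13.31 it was 10, or 5.56%. Over all hg19 tiles 1.06% were called lost, but most have no coverage to lose. Among tiles that were covered by at least 50% in parental cells, the lost made up 18 of 152, or 11.8% (exact Clopper-Pearson 95% interval 7.17 to 18.1), in 19q13.12. In 19q13.31 they made up 10 of 49, or 20.4% (10.2 to 34.3). On hg19 the share was 36.0% of 9152 such tiles, higher than in either cluster. These intervals cover counting error only, and neighbouring tiles are not independent. The nearest tile inside the limit changed by -50 points in 19q13.12 and -54 in 19q13.31, and the nearest outside by -48 and -46.

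The lost tiles of 19q13.12 gathered in the middle of its marked part. Of the 18, 9 lay between chr19:37410001 and chr19:37570000, in 4 runs. The longest run, chr19:37510001-37540000, had tiles at 88%, 92% and 100% in parental cells, 0%, 8% and 20% in DTP, and 14%, 44% and 16% in DTP + TSA. The other 3 runs had 2 tiles each. At chr19:37410001-37430000 mean coverage was 87% in parental cells, 31% in DTP and 29% after TSA. At chr19:37470001-37490000 it was 95%, 25% and 27%, and at chr19:37550001-37570000 it was 84%, 19% and 11%. In each of these 3 runs both drug-treated libraries were low and within 10 points of each other. The 2 windows of 100 kb that hold these runs went from 93.8% to 53.8% and from 94% to 47%, the largest falls of any window in either cluster. The nearby window chr19:37200001-37300000 went from 100% to 94.6%, and was at 92% after TSA.

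In 19q13.31 the lost tiles lay towards the distal end of the marked part and at single places elsewhere. The 2 runs of 2 tiles were chr19:44860001-44880000, at 87%, 15% and 20% in the 3 states in turn, and chr19:44890001-44910000, at 94%, 31% and 52%. The single tile chr19:44780001-44790000 went from 92% to 6% and then to 34%. The 9 tiles from chr19:44910001 to chr19:45000000 kept at least 64% in DTP. The window chr19:44900001-45000000 as a whole was at 98%, 86.2% and 85.2%.

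Long parental intervals were cut into pieces more than they were removed. In 19q13.12 the number of intervals went from 87 in parental cells to 190 in DTP, while their median length went from 7400 to 4400 bp. In 19q13.31 it went from 48 to 69, and the median from 6200 to 4400 bp. All 21 parental intervals over 20 kb in 19q13.12 were still touched by DTP intervals, 20 of them by more than 1, with a median of 6 and up to 11 pieces. Together these 21 kept 81.4% of their length. The 2 intervals of this class in 19q13.31 met 14 DTP intervals and kept 79.7%. Outside the clusters the 426 parental intervals over 20 kb kept 69.0%.

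Short parental intervals were lost whole more often. Of those up to 5 kb, 6 of 36 in 19q13.12 and 8 of 21 in 19q13.31 had no DTP interval over them, against 6424 of 16150 elsewhere. An interval is absent only if no DTP interval touches it, and a long one is touched more easily. Elsewhere 2090 of 7131 intervals over 5 to 20 kb were absent. Yet this class and that up to 5 kb kept 46.3% and 47.2% of their length there. Over all lengths, 8 of 87 parental intervals were absent in 19q13.12. Their median percentile of mean value in the parental list was 17.7, and that of the other 79 was 76.0. In 19q13.31, 12 of 48 were absent, at a median percentile of 38 against 64.5. In 19q13.31 this order did not hold among intervals up to 5 kb, which were 8 of the 12 absent ones, since their median percentile was 37.97 if absent and 36.98 if present. In 19q13.12 it did, at 13.6 and 95.9. That cluster has 2 places of extreme parental mean value, 92.9 in tile chr19:36770001-36780000 and 590 in tile chr19:37780001-37790000. The median of its parental intervals was 10.3. The domain chr19:36756401-36786000, which holds the former tile, joins 9 intervals in 29.6 kb. The 95.9 may rest in part on such places.

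Lost bases formed many short gaps. In 19q13.12 the 353.8 kb covered in parental cells and not in DTP fell into 187 stretches with a median of 1.2 kb and a longest of 11.0 kb. In 19q13.31, 164.2 kb fell into 67 stretches with a median of 1.6 kb and a longest of 9.8 kb, chr19:44864601-44874400. Neighbouring intervals of a list were at least 800 bp apart, so shorter gaps inside a parental interval do not appear. Stretches with parental coverage on both sides had medians of 1 kb and 1.2 kb in the 2 clusters, near this floor. The clusters differed in where the gaps lay. Gaps with parental coverage on both sides made up 50.8% of the lost length in 19q13.12 and 27.6% in 19q13.31, and the rest reached an end of a parental interval. Parental intervals were also longer in 19q13.12. Those over 20 kb held 1069 of 1494.6 kb there and 152.4 of 497.4 kb in 19q13.31. The part of interval length in this difference was not tested.

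In both clusters bases near an end of a parental interval were kept less often than bases far from any end. The distance classes hold different intervals, 87 within 2 kb and 11 beyond 20 kb in 19q13.12, and 48 and 2 in 19q13.31. Parental intervals up to 5 kb kept 57.5% of their length in 19q13.12, and those over 20 kb 81.4%. The gradient therefore mixes distance with interval length, and the 2 were not separated. Within 2 kb of an end 57.9% of the parental bases were still covered in DTP in 19q13.12, and more than 20 kb from any end 88.7% were. In 19q13.31 these shares were 52.7% and 85.4%, the latter from 2 intervals. Elsewhere on hg19 they were 44.3% and 84.9%, so the gradient is not particular to the clusters. DTP + TSA had a similar profile, with 57.2% and 88.3% in 19q13.12 and 49.2% and 82.0% in 19q13.31. The widest gap was at 10 to 20 kb in 19q13.31, with 90.5% in DTP and 80.5% in DTP + TSA, from 2 intervals.

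**Figure D3:**
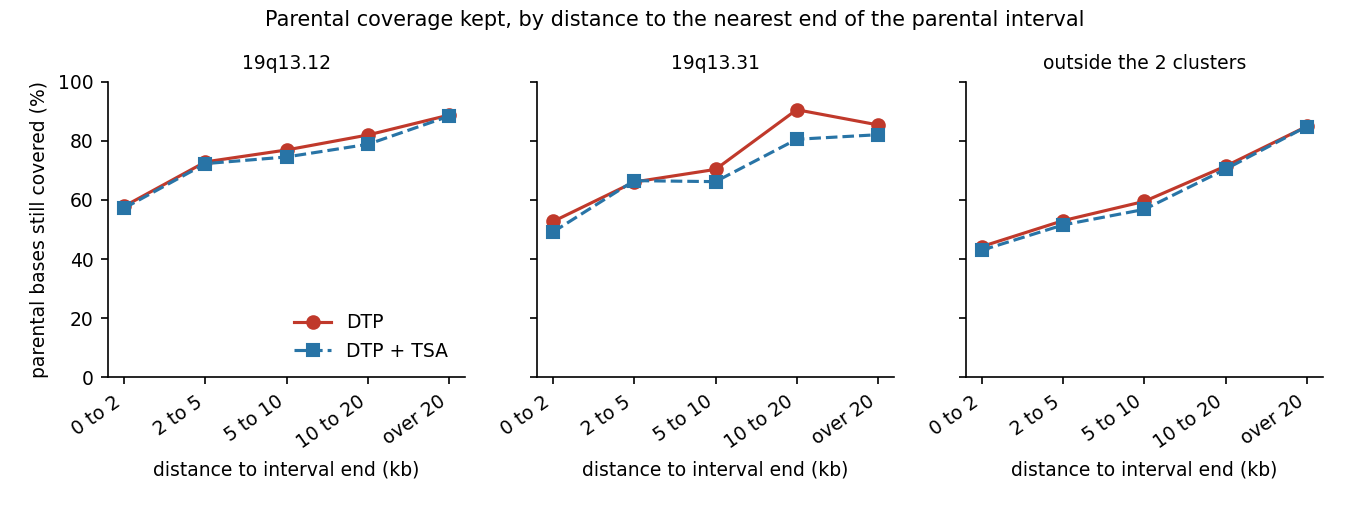
Parental bases still covered (percent) in DTP and DTP + TSA by distance to the nearest end of the parental interval (kb), for both clusters and the rest of hg19. Coverage kept rose from 57.9% to 88.7% in 19q13.12 in DTP. The lines of the drug-treated libraries lie close together except at 10 to 20 kb in 19q13.31 (90.5% in DTP, 80.5% in DTP + TSA).

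Joined domains showed the same division. The 1012 kb domain of 19q13.12 overlapped 10 domains in DTP and 10 in DTP + TSA, and the 241.6 kb domain 3 in each. The cluster had 18 domains in DTP, with a longest of 279.8 kb, and 19 in DTP + TSA, with a longest of 299.4 kb. In 19q13.31 the number went the other way, from 13 to 9 in DTP and 12 in DTP + TSA, and 5 of the 13 parental domains met no DTP domain. These 5 were not bare, since DTP pieces under 10 kb still covered from 13.8% to 80% of each. Total domain length was 1542.6, 1397.6 and 1409.2 kb in the 3 states of 19q13.12, and 477.4, 376.8 and 330.0 kb in 19q13.31. These totals include parts of domains outside the bands. The last domain of 19q13.12 ran past the band end, to 38309400 in parental cells and DTP + TSA and to 38331800 in DTP. The first parental domain of 19q13.31 began before its band, at 43392001.

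The proximal edge of the marked part moved outward by 2 kb in 19q13.12, while that of 19q13.31 moved inward by 7.6 kb in DTP. After TSA the latter edge lay 3.6 kb inward of its parental place. In 19q13.12 the first domain of over 20 kb began at position 36716201 before treatment, 36714201 in DTP and 36714001 after TSA. Of 20 parental borders, 6 stayed within 2 kb in DTP, 6 lay outward, 2 inward and 6 belonged to domains with no counterpart. Outward shifts reached 65.4 kb, where 1 DTP domain spans neighbouring parental ones. In DTP + TSA the counts were the same, 6, 6, 2 and 6, but not for the same borders. Border 36738400 stayed in DTP and lay outward in DTP + TSA, and 37807000 stayed and then lay inward. Border 38244801 lay inward in DTP and 38309400, past the band end, outward, and both stayed in DTP + TSA. In 19q13.31, of 26 borders, 7 stayed, 3 lay outward, 6 inward and 10 had no counterpart in DTP, and 4, 4, 8 and 10 in DTP + TSA. Its longest domain, 122.6 kb, drew in at both ends, by 13.8 and 8.2 kb in DTP and by 13.8 and 7.8 kb in DTP + TSA.

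Gains in DTP covered less length than losses in both clusters. In 19q13.12, 65.8 kb was covered in DTP and not in parental cells, in 50 stretches with a median of 0.8 kb. In 19q13.31 it was 65.6 kb in 38 stretches with a median of 1.0 kb. Called gains, rises of at least 50 points, numbered 2 of 280 tiles in 19q13.12 (0.714%) and 0 in 19q13.31, against 1.26% of all hg19 tiles. Among tiles with at most 50% parental coverage they were 2 of 131 in 19q13.12, or 1.53% (Clopper-Pearson 0.185 to 5.41), and 0 of 131 in 19q13.31 (upper bound 2.78). The hg19 share, 1.30% of 300910 such tiles, lies within both intervals. The 2 tiles were chr19:36330001-36340000, at 0% in parental cells and 72% in both drug-treated states, and chr19:36740001-36750000, at 0%, 56% and 62%. The rest of hg19 went the other way as a whole, from 3.99% to 5.28% covered.

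The second comparison asked whether TSA brought the lost coverage back. In total it rose slightly, from 42.8% to 44.2% in 19q13.12 and from 22.2% to 23.3% in 19q13.31. The rise came from tiles that were poorly covered in parental cells. In tiles covered by at least 50% in parental cells, mean coverage in 19q13.12 was 92.9% before treatment, 73.1% in DTP and 71.4% after TSA, and in 19q13.31 it was 87.3%, 63.4% and 59.6%. With the upper part of each list by mean value alone, this last step went up instead, by 2.52 points in 19q13.12 and 2.36 in 19q13.31. In tiles below 50%, the means were 5.72%, 6.73% and 11.7% in 19q13.12 and 5.31%, 6.72% and 9.66% in 19q13.31. Elsewhere on hg19, tiles of at least 50% went from 75.2% to 42.2% and 41.5%, and those below 50% from 1.87% to 4.18% and 4.68%.

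**Figure D4:**
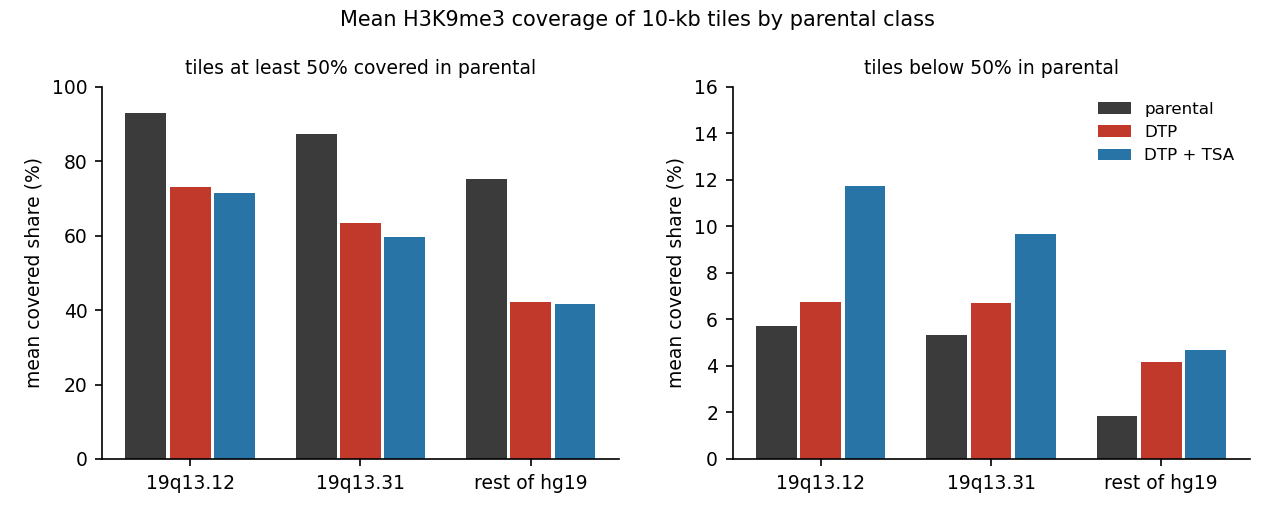
Mean coverage of 10-kb tiles (percent) in the 3 libraries, for tiles covered by at least 50% (left) and below 50% (right) in parental cells, in both clusters and in the rest of hg19. In the left panel DTP + TSA stands below DTP (71.4% and 73.1% in 19q13.12), and in the right panel it is the highest of the 3 (11.7% in 19q13.12).

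Base by base, some lost coverage returned and a somewhat larger length that DTP had kept was lost. In 19q13.12, DTP + TSA covered 112.0 kb, or 31.7%, of the bases lost in DTP, and did not cover 135.6 kb, or 11.99%, of the parental bases that DTP had kept. The net change over parental bases was -23.6 kb. In 19q13.31 it covered 35 kb (21.3%) of the lost bases and left out 50.2 kb (15.1%) of the kept ones, a net of -15.2 kb. Over bases bare in parental cells the net was a gain of 62.6 kb in 19q13.12 and 35 kb in 19q13.31. Of the bases bare in both earlier libraries, DTP + TSA covered 6.23% and 4.70%, so lost bases were covered more often than bare ones in the same cluster. The 2 kinds of bases lie in different places. Lost bases lie within parental intervals, while many bare ones lie in the 102 and 101 tiles of the clusters without parental coverage. Whether place alone gives the difference was not tested. Elsewhere on hg19 these shares were 14.1% of lost and 1.97% of bare bases. The same DTP library enters the loss and the return, so they are not independent.

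By length, returned bases lay in other places in the 2 clusters. In 19q13.12, gaps inside parental intervals were covered again over 43.0% of their length, and losses that reached an interval end over 19.9%. In 19q13.31 the shares were 17.6% inside, of 45.4 kb, and 22.7% at ends, of 118.8 kb. By number of stretches both clusters went the same way. In 19q13.12, 44 of 113 stretches inside and 9 of 74 at ends were fully covered. In 19q13.31 it was 6 of 23 inside and 3 of 44 at ends. Of the 187 lost stretches of 19q13.12, 53 were fully covered in DTP + TSA and 79 not at all. Of the 67 in 19q13.31, 9 were fully covered and 35 not at all.

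By whole tiles, few lost tiles came back near their parental coverage. A lost tile was counted as restored where DTP + TSA came within 25 points of the parental value. None of the 18 lost tiles of 19q13.12 did so, and 1 of the 10 in 19q13.31 did, against 6.10% of the 3294 lost tiles of hg19. The count depends on the limit, since 2 tiles of 19q13.12 missed it by 1 point, chr19:37370001-37380000 (100%, 38% and 74% in the 3 states) and chr19:36960001-36970000 (76%, 18% and 50%). The restored tile was chr19:44190001-44200000, outside the main marked part, at 54% before treatment, 0% in DTP and 32% after TSA. Median coverage of the lost tiles was 90%, 26% and 35% in 19q13.12, and 88%, 16% and 33% in 19q13.31. DTP + TSA was above DTP in 8 of the 18 tiles, below in 6 and equal in 4, and in 19q13.31 above in 8 of 10 and equal in 2. From parental to DTP + TSA directly, 21 of 152 tiles were called lost in 19q13.12 (13.8%) and 13 of 49 in 19q13.31 (26.5%), against 37.4% of such tiles on hg19.

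Tiles that changed by at least 50 points between DTP and DTP + TSA were few. In 19q13.12, 2 were lost and 2 gained, and in 19q13.31 2 were lost and 1 gained. On hg19 0.237% of all tiles were lost in this step and 0.786% gained, and 7.62% of those covered by at least 50% in DTP were lost. In the clusters this last share was 2 of 133 tiles and 2 of 40. The losses fell in tiles that DTP had kept, chr19:36920001-36930000 (100%, 82% and 10% in the 3 states), chr19:37660001-37670000 (100%, 66% and 16%) and the run chr19:44820001-44840000 (90%, 72% and 13%). The gains fell in tiles with at most 26% coverage in either earlier library. By the rule itself a lost tile has at least 50% in DTP and a gained one at most 50%. The tile chr19:36470001-36480000 went from 0% and 0% to 100%, within a 13.8 kb interval at chr19:36467201-36481000 found in DTP + TSA alone. The tile chr19:36350001-36360000 stood at 0%, 22% and 80%, and chr19:43650001-43660000 at 26%, 4% and 54%. The gain in the latter was in part a return. Its parental stretch chr19:43657401-43659600, 2.2 kb, was lost in DTP and fully covered in DTP + TSA. Both tiles of 19q13.12 lie in its poorly covered proximal stretch, whose 13 windows averaged 8.68%, 8.38% and 13.38%.

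DTP + TSA covered 87.4% of the DTP bases in 19q13.12 and 81.6% in 19q13.31, against 68.8% outside the clusters. The other zinc finger bands were alike or higher, at 83.4% in 19p12, 88.96% in 19p13.2 and 92.4% in 19q13.41 to 19q13.43. Seen from DTP + TSA, the shares were 84.6% in 19q13.12, 77.7% in 19q13.31 and 63.3% outside the clusters. Coverage was also higher in the clusters, at 42.8% and 22.2% in DTP against 5.28% elsewhere, and its part in the overlap was not tested.

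In the share of coverage lost, both clusters stood between the other zinc finger bands of chromosome 19. In the share covered again 19q13.31 was the lowest of the bands compared, close to 19p12 and above the rest of hg19. The share of parental bases lost in DTP was 23.8% in 19q13.12 and 33.0% in 19q13.31. It was 39.4% in 19p12, 14.4% in 19p13.2 and 13.9% in 19q13.41 to 19q13.43 as 1 stretch, and 50.1% on hg19 without the 2 clusters. Within that stretch 19q13.42 alone lost 21.4%. The share of lost bases covered again in DTP + TSA was 31.7% and 21.3% in the 2 clusters, 22.5% in 19p12, 38.2% in 19p13.2 and 41.9% in the distal bands. On hg19 without the 2 clusters it was 14.1%. Total coverage rose with TSA by 1.39 and 1.10 points in the 2 clusters, by 5.70 in 19p13.2 and by 7.01 in the distal bands, and its change in 19p12 was -0.67 points. With 1 library per state none of these differences between bands could be tested.

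**Figure D5:**
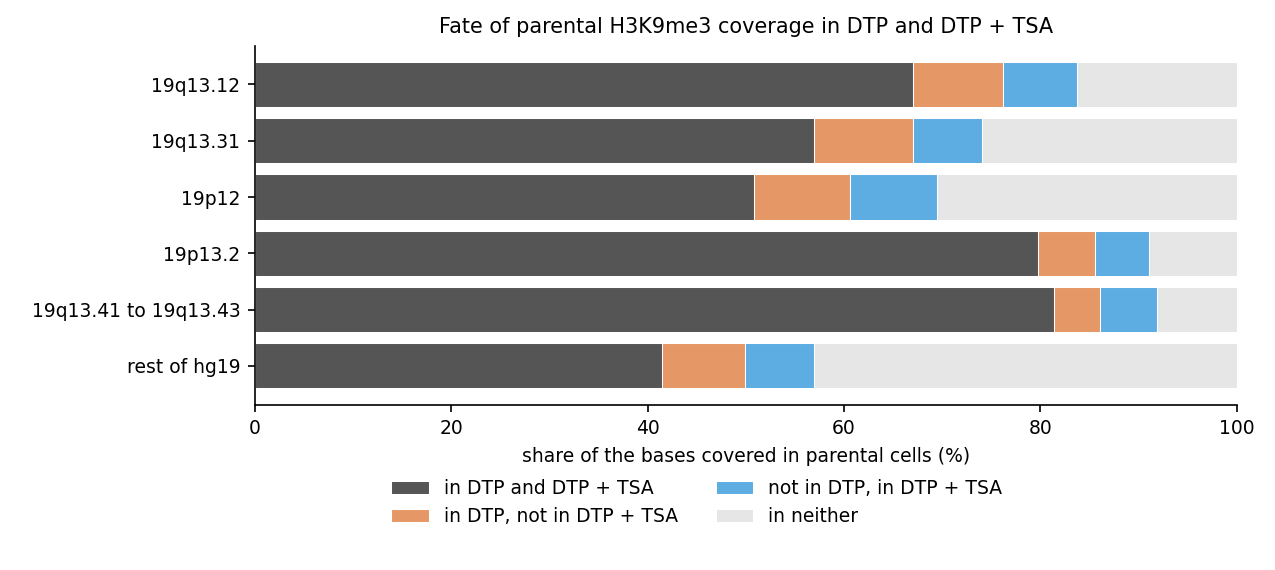
Bases covered in parental cells, split by whether DTP and DTP + TSA also cover them (percent of the parental coverage of each region). In 19q13.12 67.0% were in all 3 libraries and 16.3% in neither drug-treated one, and in 19q13.31 56.9% and 25.98%.

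Within each list, the intervals of 19q13.12 ranked high in parental cells and in the middle in the others. Their median percentile of mean value was 72.2 in the parental list (quartiles 44.9 and 88.7), 52.7 in DTP (29.5 and 78.6) and 52.3 in DTP + TSA (30.4 and 79.8). In 19q13.31 the medians were 50.8, 37.9 and 49.8. The quartiles of the libraries overlap widely. The drug-treated lists hold shorter intervals, so the ranks compare unlike units. Weighted by length, the medians were 79.0, 53.8 and 62.1 in 19q13.12, and 72.2, 63.2 and 58.1 in 19q13.31. From DTP to DTP + TSA the weighted medians thus went up in the former and down in the latter.

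The size of the loss depended on how many intervals were compared. In 6 of 12 alternatives to the full lists the parental list stays whole and intervals are taken from the drug-treated ones alone, so DTP could not come out higher there. In the other 6 DTP was below parental cells, with differences from -22.5 to -2.93 points. With each list cut to the same number of intervals, ranked by mean value, which is of the former kind, 84 tiles of 19q13.12 and 26 of 19q13.31 were called lost, in place of 18 and 10. The small rise in total coverage with TSA turned into a fall in 5 of the 12, 3 in 19q13.12 and 2 in 19q13.31.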

How the data were processed

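H3K9me3 libraries of parental, DTP and DTP + TSA cells (1 each of 8 samples) were used. H3K4me3 and input libraries were not analysed here. Per the file headers, the authors deposited intervals with borders, a summit, the value there, an average value and a bin count. The values are the authors' signal within each interval, whose scaling is not given in the sources used here. BWA, SICER, hg19 and dm3 are named without roles or versions, per the submitters' processing notes. Thresholds and depth are unknown, and a deeper library can yield more and longer intervals.

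Coverage was computed on the deposited grid of 200 bp, with positions written from base 1. Bands came from circlize 0.4.16 under R 4.3.3, lengths from GenomeInfoDb 1.38.1. The rest was done in Python 3.11.15 (scipy 1.17.1, pandas 2.3.3, matplotlib 3.10.9, numpy 2.4.6). Of 9 checks on inputs with known answers, 9 passed. Named regions were the 3 longest parental domains, the 3 longest runs of lost, gained and restored tiles, and the strongest interval per library. Windows, single tiles and stretches named besides were chosen after their values were seen. Genes were found by name in GRCh38 (RefSeq) bands of the same name. Members, lists and rules were chosen with earlier results of these data known. Alternatives were interval subsets, tile widths and offsets, call limits and domain rules. An hg19 genome and annotation were not used here.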

Additional observations from a re-analysis of the deposited data

How the results depend on the processing

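Of 382 alternative values, 156 moved past the limit set for them (the exact binomial interval over tiles for shares, 1.5 times for counts) and 7 changed sign. The other 219 show no stability by themselves, since 14 are parental values that the alternative cannot change and the interval treats neighbouring tiles as independent. In marked tiles (at least 50% in parental cells) DTP was below parental cells in the 12 alternatives that do not leave the parental list whole, though the choice of tiles favours this, and in the other 6 the sign was fixed. DTP + TSA was below DTP there in 16 of 18. The cause of the changes below was not tested, except that fewer intervals give less coverage. Equal covered length and all values for marked tiles were chosen after seeing the data. No read depth is known, so what depth limits could not be measured.

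In this paragraph DTP and TSA stand for coverage in percent of the cluster in DTP and DTP + TSA. In 19q13.12, DTP and TSA were 51.6 and 53.99 with intervals within 5 kb joined, 24.8 and 26.1 in the upper part by mean value, 24.6 and 24.2 with equal numbers by mean value, 35.6 and 35.4 with equal numbers by summit, and 36.6 and 34.8 with equal covered length. In 19q13.31 they were 12.5 and 14.3 in the upper part (parental 19.3) and 12.5 and 13.311 with equal numbers by mean value, and TSA was 15.0 by summit and 16.9 with equal length. DTP minus parental was -22.5 in 19q13.12 in the upper part, and -28.4 and -15.2 in the 2 clusters with equal numbers by mean value. TSA minus DTP turned negative in 19q13.12 with equal numbers by mean value (-0.46), by summit (-0.23) and equal length (-1.72), and in 19q13.31 by summit (-1.59) and without short intervals (-0.16).

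In marked tiles the mean change from parental to DTP was -10.4 points in 19q13.12 with joining. In 19q13.12 and 19q13.31 it was -49.2 and -38.4 in the upper part, -51.1 and -46.7 with equal numbers by mean value, -31.4 and -36.7 by summit, and -29.7 and -35.3 with equal length. TSA minus DTP there turned to 2.52 and 2.36 in the upper part. The share of lost bases covered after TSA was 24.3% in the upper part and 16.4% with equal numbers by mean value in 19q13.12. In 19q13.31 it was 9.38% with equal numbers by mean value and 7.86% by summit.

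Tiles lost from parental to DTP numbered, in 19q13.12 and 19q13.31, 84 and 26 with equal numbers by mean value, 49 and 20 by summit, 45 and 18 with equal length, 44 and 22 with 5-kb tiles, 6 and 1 with 20-kb tiles, 50 and 25 at 25 points and 4 and 1 at 75 points, and 67 in 19q13.12 in the upper part. Tiles gained in this step were 4 and 3 with joining, 4 and 2 in the upper part, 6 and 8 with 5-kb tiles, 5 and 11 at 25 points, 0 at 75 points and with 20-kb tiles in 19q13.12, and 2 in 19q13.31 with shifted tiles. From DTP to DTP + TSA, lost and gained tiles of 19q13.12 were 5 and 6 with joining, 11 and 10 in the upper part, 12 and 7 with equal numbers by mean value, 10 and 9 by summit, 13 and 8 with equal length, 8 and 12 with 5-kb tiles, 10 and 14 at 25 points, and 0 and 1 at 75 points and with 20-kb tiles. Gained tiles were 5 without short intervals and with shifted tiles. In 19q13.31 they were 5 and 4 with joining, 7 and 9 with 5-kb tiles, 10 and 14 at 25 points, 1 and 0 with 20-kb tiles and with shifted tiles, and 0 and 0 at 75 points. Lost tiles were 6 by summit, and gained tiles 0 with equal numbers by mean value and 2 without short intervals.

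Domains of 19q13.12 numbered 17, 34 and 39 in parental cells, DTP and DTP + TSA with joining within 2 kb, and 8 in DTP within 10 kb. In 19q13.31 they numbered 5 in DTP in the upper part and with equal numbers by mean value, and 7 in DTP + TSA at a minimum of 20 kb. Domain length in kb in DTP and DTP + TSA was 666.4 and 731.8 in the upper part and 647.2 and 686.0 with equal numbers by mean value in 19q13.12. In 19q13.31 it was 184.6 and 196.8, and 184.6 and 191.8, with 235.8 in DTP within 2 kb, and 212.4 by summit and 506.4 within 10 kb in DTP + TSA. Inward borders of 19q13.12 in DTP and DTP + TSA were 10 and 13 in the upper part, 4 and 6 with equal numbers by mean value, 5 and 4 by summit and without short intervals, and 6 and 7 within 2 kb. They were 1 in DTP within 10 kb and at a shift of 5 kb, and 4 in DTP + TSA at a minimum of 20 kb. Outward ones were 3 and 3 in the upper part, 2 and 3 with equal numbers, and 3 in DTP by summit and within 10 kb. Borders that stayed were 2 and 3 with equal numbers, 14 and 11 within 2 kb, and 2 in DTP + TSA within 10 kb. In 19q13.31, inward borders in DTP + TSA were 5 within 2 kb and 4 within 10 kb. Outward borders in DTP were 1 in the upper part, 0 with equal numbers and 6 within 10 kb, and in DTP + TSA 8 within 10 kb, 1 at a minimum of 20 kb, and 2 with equal numbers, without short intervals, within 2 kb and at a shift of 5 kb. Borders that stayed were 4 in DTP with equal numbers, and in DTP + TSA 2 in the upper part, with equal numbers and by summit, 7 within 2 kb and at a shift of 5 kb, and 8 within 10 kb. Weighted by length, the median percentile of mean value in 19q13.31 was 72.2 in parental cells and 63.2 in DTP.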
